A study of Homo sapiens with 4 samples.

Results

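Among the introns measured in the cytoplasm of SUM159 cells, 362 introns of 341 genes had fewer intronic reads after H3B-8800 than with DMSO. They were chosen by their intronic reads. Each had at least 20 such reads in each DMSO library, and its RPM (intronic reads scaled to the library total) in each H3B-8800 library was at most 50% of the DMSO mean. Of 142206 introns in 15902 genes, 3852 had enough reads in DMSO to be judged, and the 362 were 9.4% of those. The fall in intronic reads is therefore the choice itself and is described without a test. That the intronic reads of the 2 groups lie apart in each of these introns mostly follows from the choice as well. The number depends on the libraries and the scaling: without H3B-8800 replicate 2 the rule gave 549 introns, and with TMM scaling of the intronic reads 999.

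SUM159 is an established line of triple-negative human breast cancer cells. The cells were kept for 12 hours with the splicing inhibitor H3B-8800 (2 libraries) or with its vehicle DMSO (2 libraries), as biological duplicates of this 1 line. All 4 libraries were made from polyadenylated RNA of the cytoplasmic fraction with a strand-specific kit. The library totals, worked back from the deposited RPKM, were 58000000 and 62000000 reads after H3B-8800 and 64000000 reads for either DMSO library. Intronic reads summed to 1035695 and 1126434 after H3B-8800, against 629498 and 628580 in DMSO. Spliced reads of VIM, a mesenchymal filament gene, lay between 4939 and 6080 CPM over the 4 libraries, those of AXL between 44.0 and 106 CPM, those of CD44 between 9.33 and 22.7 CPM, and those of ZEB1 between 7.52 and 8.97 CPM. ESR1 and PGR, the hormone receptor genes, had 0 spliced reads in every library, CDH1 had at most 0.0872 CPM, and ERBB2 had 31.3 to 39.3 CPM.

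H3B-8800 binds SF3B1 in the SF3b complex, which helps the U2 particle recognise the branch point near the end of an intron. Blocking it usually leaves introns in RNA, so introns that lose reads are the less common outcome. An intron of one transcript can hold an exon of another transcript of the same gene, such as a first exon, a skipped exon, or a last exon that ends the RNA early at its own polyadenylation site. Reads from such an exon are counted as intronic reads of the surrounding intron. The deposited intervals begin and end on the flanking exon bases, and coordinates below are those intervals on hg38, 1-based, while lengths leave out these end bases. Exons and intron numbers come from GENCODE release 29.

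An annotated last exon of the host gene lay inside 123 of these introns, and a first exon inside 74. Internal exons were counted only where neither lay inside. The windows below are shown because they hold AATAAA or ATTAAA near the annotated ends of such last exons, in introns named in the results. Each gives the bases around the last AATAAA or ATTAAA, in capitals, within 50 bases of the exon's annotated end, read 5′ to 3′ on the gene's strand from the GENCODE transcript.
CRADD, intron 2 (chr12:93738596-93738625, plus strand): acgccagcccttAATAAAaactaaaactga
CENPK, intron 5 (chr5:65550472-65550501, minus strand): gtaaatttaaccAATAAAtgttgtgtgtat
USP37, intron 10 (chr2:218528271-218528300, minus strand): acttaaaatataATTAAAaaaaaaaagtga
EPC2, intron 2 (chr2:148692804-148692833, plus strand): cccatcgaatacAATAAAcattattcttgt
DGKI, intron 1 (chr7:137771603-137771632, minus strand): attgaaataatcATTAAAatattattgaga
ZNF714, intron 2 (chr19:21091728-21091757, plus strand): tgtactttttatAATAAActagtaaacata
UNK, intron 1 (chr17:75794155-75794184, plus strand): acaaaaatgtatATTAAAtatccagtagag
NDUFAF5, intron 6 (chr20:13803381-13803410, plus strand): ctttgtaatgaaAATAAAcactattaatac
Between the capitals and the annotated end lay 12 bases in CRADD, USP37 and EPC2, 13 in ZNF714, 16 in DGKI, 17 in CENPK, 23 in NDUFAF5 and 26 in UNK. The CRADD, CENPK, USP37 and EPC2 exons belong to protein-coding transcripts of the GENCODE basic set, and the others to transcripts outside that set. USP37 and EPC2 were picked as examples after their values were seen. The named introns of ARIH2, ADARB1, MORN1 and IMMP2L also hold an annotated last exon. Neither AATAAA nor ATTAAA was found within 50 bases of its end in these introns.

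Over the 123 introns with such a last exon, 184 distinct exon ends were annotated. Of these ends, 61 (33.2%) had AATAAA or ATTAAA within 50 bases on the transcribed strand. The same held for 30.4% of 985 ends inside the other judged introns, for 33.5% of 140502 ends of all annotated transcripts with several exons, and for 54.9% of 51458 ends of protein-coding ones. The share inside the falling introns was close to that of the whole annotation and below that of protein-coding transcripts.

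Summed over the 362 introns, intronic reads came to 155 and 162 RPM after H3B-8800, against 528 and 513 RPM in DMSO. The middle intron kept 0.303 of its DMSO level, with quartiles of 0.230 and 0.382. In 74 introns, each H3B-8800 library was at or below 25% of the DMSO mean. In the other 3490 judged introns the middle ratio was 1.35, and in 59.7% of all judged introns the mean with H3B-8800 was above that with DMSO. By the mirrored rule, with at least 20 reads in each H3B-8800 library and DMSO at most 50% of their mean, 4164 of 7184 introns gained reads. Between the DMSO libraries the larger count was 1.17 times the smaller in the middle falling intron, and at least 2 times in 10 of 362. In such bulk RNA, fewer cells with a transcript and less of it per cell cannot be told apart.

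**Figure D1:**
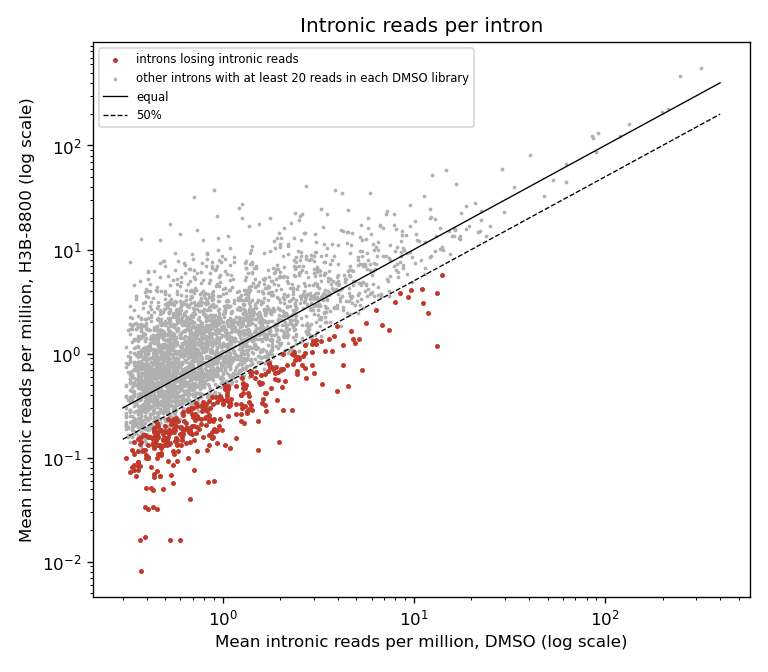
Mean intronic RPM of each judged intron with H3B-8800 (vertical, log scale) against DMSO (horizontal, log scale). Red points are the introns losing reads (362 in all), grey points the other 3490; introns at 0 reads with H3B-8800, such as that of MORN1, cannot be drawn on a log axis. Grey points spread on both sides of the solid line of equality, while red points lie below the dashed line at 50% by choice.

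The introns with the most DMSO reads show the size of the loss best. Intron 3 of ARIH2, an E3 ubiquitin ligase gene (chr3:48927813-48961612, 33798 bp), had 68 and 73 intronic reads with H3B-8800, against 877 and 823 in DMSO, or 8.85% of the DMSO level in RPM. Exons of ARIH2 transcripts that are non-coding or marked for nonsense-mediated decay are annotated inside it, among them a last exon. The other 14 listed introns of ARIH2 together had 1.59 times their DMSO level of intronic reads and so did not share the loss.

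Intron 2 of ADARB1, the gene of the RNA-editing enzyme ADAR2 (chr21:45128573-45171610), had 131 and 161 intronic reads with H3B-8800, against 706 and 806 in DMSO. Annotated first and last exons of coding ADARB1 transcripts lie inside it. The other 8 listed introns of ADARB1 together were at 2.37 times their DMSO level. Within each group the 2 libraries were close to each other in both genes.

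Intron 1 of UNK, which encodes an RNA-binding zinc finger protein (chr17:75784984-75809760), had 348 and 339 intronic reads with H3B-8800, against 969 and 836 in DMSO. Last exons of transcripts marked for nonsense-mediated decay lie inside it, and it overlaps an exon of H3F3B on the opposite strand. Since the use of strand in counting is not given, reads of H3F3B cannot be told apart here. Intron 1 of DGKI, a diacylglycerol kinase gene (chr7:137690002-137846462, 156459 bp), had 181 and 185 intronic reads with H3B-8800, against 717 and 704 in DMSO. A processed pseudogene lies inside it on the opposite strand, beside the last exon of a non-coding DGKI transcript whose end is shown above. Spliced reads across this intron were 13 and 21 after H3B-8800, against 87 and 61 in DMSO. This is 0.243 of the DMSO level in RPM, so here they were lower by about as much as the intronic reads. The other 32 listed introns of DGKI did not share this fall. Together they had 2.07 spliced RPM after H3B-8800, against 1.36 in DMSO.

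CRADD encodes a death-domain adaptor of caspase-2. Its last intron (chr12:93679072-93849970, 170897 bp), which holds the last exon shown above, had 219 and 197 intronic reads with H3B-8800, against 629 and 560 in DMSO. A first exon of CRADD also lies inside it. It overlaps exons of AC012464.2 and RN7SL630P on the same strand and of AC012085.2 on the opposite strand. Reads of these cannot be told apart here. Spliced reads across the same intron were 760 and 856 after H3B-8800, against 1671 and 1612 in DMSO, so both kinds of read were lower.

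NOP56 intron 8 and ITGB1BP1 intron 1 are short by comparison. Intron 8 of NOP56, a core protein gene of small nucleolar ribonucleoproteins (chr20:2656034-2656401, 366 bp), had 220 and 243 intronic reads with H3B-8800, against 806 and 885 in DMSO, while its 10 other introns together had 1.73 times the DMSO level. The intron carries the small nucleolar RNA SNORD86, which is also part of exons of non-coding NOP56 transcripts, and it lies within annotated transcripts that retain it. SNORD86 is shown as the annotated product of this intron, with the CTGA that stands closest to its 3′ end, the letters of a D box, in capitals.
SNORD86 (chr20:2656097-2656182, plus strand): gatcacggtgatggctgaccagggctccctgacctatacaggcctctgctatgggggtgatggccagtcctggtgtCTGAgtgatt
The libraries do not separate reads of the small RNA from those of longer transcripts over it. Intron 1 of ITGB1BP1, an integrin-binding protein gene (chr2:9418732-9423373), had 214 and 278 intronic reads with H3B-8800, against 587 and 642 in DMSO, and several annotated first exons lie inside it.

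PAK3, a p21-activated kinase gene, differs from these. Its intron 2 (chrX:111123278-111142096, 18817 bp) had 230 and 266 intronic reads with H3B-8800, against 706 and 703 in DMSO, but only 1 and 2 spliced reads with H3B-8800 and 0 in either DMSO library. No exon is annotated inside it on either strand, and it held 99.7% of all intronic reads of PAK3 in DMSO. This intron thus had many intronic reads and next to no spliced reads across it in any library.

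The lowest ratios were found at low counts. Intron 8 of MORN1 (chr1:2358715-2372481) had 0 and 0 intronic reads with H3B-8800, against 28 and 24 in DMSO. With 3 reads per H3B-8800 library taken as the limit that a count of 0 allows, this is 8.12-fold lower. That limit takes reads as independent and the DMSO counts as exact. Mates of a pair may have been counted separately, so the true bound may be smaller. Introns of 3 zinc finger genes were among the 8 lowest. Intron 3 of ZNF318 had 0 and 1 reads with H3B-8800, against 20 and 28 in DMSO. Intron 2 of ZNF714 had 0 and 2 reads with H3B-8800, against 38 and 38 in DMSO. Intron 2 of ZNF431 had 0 and 2 reads with H3B-8800, against 23 and 24 in DMSO. Such counts carry wide counting errors, and these introns were ranked by their ratio.

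Intron 3 of RTKN2 had 0 and 2 reads with H3B-8800, against 26 and 42 in DMSO. Intron 15 of COP1, an E3 ubiquitin ligase gene, had 2 and 0 reads with H3B-8800, against 30 and 20 in DMSO, and the other 13 listed introns of COP1 were at 1.89 times their DMSO level. In intron 6 of NDUFAF5, a complex I assembly factor gene, 0 and 5 reads were counted with H3B-8800, against 41 and 45 in DMSO. IMMP2L, which encodes a mitochondrial inner membrane peptidase subunit, has the longest of these introns at 523672 bp (intron 4), with 5 and 2 reads with H3B-8800, against 71 and 44 in DMSO. An opposite-strand gene, LRRN3, lies inside it. In COP1 and NDUFAF5 the spliced reads across the same intron moved the other way: they were 64 and 46 after H3B-8800, against 34 and 36 in DMSO, in COP1. In NDUFAF5 they were 72 and 47 after H3B-8800, against 39 and 41 in DMSO. The groups did not overlap in spliced reads in either gene. Spliced reads summed per gene were higher in both, with log2 changes of 0.80 in COP1 and 0.82 in NDUFAF5.

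**Figure D2:**
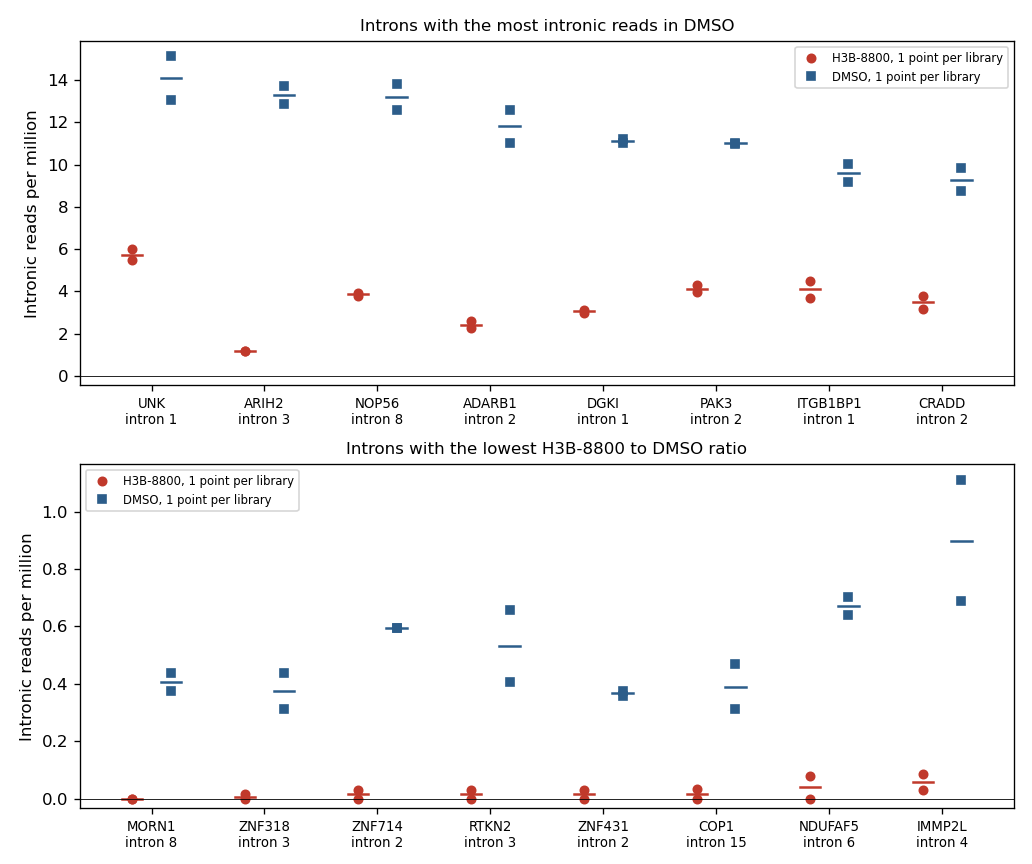
Intronic RPM in each library for the 8 falling introns with the most DMSO reads (top) and the 8 with the lowest ratio (bottom); red circles are the 2 H3B-8800 libraries, blue squares the 2 DMSO libraries, and bars their means. The gap between the groups follows from how the 16 introns were chosen, and the lower panel rests on far fewer reads.

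Introns on either side of the limit differ little. Just inside it, intron 3 of FNDC3B had 19 and 16 reads with H3B-8800, against 48 and 36 in DMSO. Intron 2 of EXPH5 had 12 and 14 after H3B-8800, against 28 and 30 in DMSO, and intron 13 of SCMH1 had 14 and 21 after H3B-8800, against 48 and 39 in DMSO. Just outside it, intron 11 of VRK1 had 6 and 17 reads with H3B-8800, against 34 and 36 in DMSO. Intron 1 of DRAP1 had 20 and 21 after H3B-8800, against 50 and 38 in DMSO, and intron 1 of BICD1 had 50 and 78 after H3B-8800, against 144 and 177 in DMSO.

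The falling introns were long. Their median length was 10652.5 bp (quartiles 3565 and 29288 bp), against 4508.5 bp in the other judged introns and 1459 bp in all introns, and they ranged from 73 to 523672 bp. The share of judged introns that lost reads was 3.17% up to 150 bp (2 of 63), 6.20% from 151 to 1000 bp (31 of 500), 6.75% from 1001 to 10000 bp (142 of 2105), 13.9% from 10001 to 50000 bp (126 of 909) and 22.2% over 50000 bp (61 of 275). Reads were spread more thinly over them, with a middle value of 5.71 intronic reads per kb in DMSO, against 12.0 in the other judged introns. Length was not used in the choice, but a long intron reaches 20 reads more easily, and no test of these shares was made because introns are not replicates.

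By place in the transcript, 72 were first introns (20.1% of the 359 that could be placed), 251 internal (69.9%), 35 last (9.75%) and 1 the only intron. Of the other judged introns 18.1% were first and 18.1% last. Within 1001 to 10000 bp, 22 of 292 first introns (7.53%), 106 of 1370 internal introns (7.74%) and 14 of 410 last introns (3.41%) lost reads. Over 50000 bp the order was another one, though with few introns: 7 of 21 last introns (33.3%) and 18 of 86 first introns (20.9%) lost reads.

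An annotated exon on the same strand touched 275 of the falling introns (76.0%) and 76.2% of the other judged introns, a like share. The kinds of exon had other shares. A last exon of the host gene lay inside 123 falling introns (34.0%) and inside 703 of the other judged introns (20.1%), counting transcripts whose annotated end is complete. An exon of the host gene that runs across the whole intron, the form of a retained intron, was annotated for 18 (4.97%) and for 355 (10.2%). First exons inside (20.4% of the falling introns, 18.0% of the others) and exons of transcripts marked for nonsense-mediated decay (10.8% of the falling introns, 10.5% of the others) had similar shares, and 77 falling introns (21.3%) and 738 others (21.1%) held no annotated exon at all.

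Long introns hold more exons, so the shares were also taken within length classes. From 1001 to 10000 bp, 42 of 407 introns with a last exon inside lost reads (10.3%), against 100 of 1698 without (5.89%). From 10001 to 50000 bp these were 50 of 290 (17.2%) and 76 of 619 (12.3%), and over 50000 bp 30 of 112 (26.8%) and 31 of 163 (19.0%). The introns were also split by average DMSO reads into successive classes that start at 20, 40, 80 and 160 reads. In the class from 20 reads, 12.8% of introns with a last exon inside lost reads, against 7.99% without. The shares were 13.7% with and 7.43% without in the class from 40 reads, 16.4% and 10.2% in that from 80, and 20.2% and 5.79% in that from 160. The share was higher with a last exon inside in each of these classes. Many of these last exons belong to partial or non-coding transcript models: counting only the GENCODE basic set, 29 falling introns (8.01%) and 166 others (4.76%) held one.

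**Figure D3:**
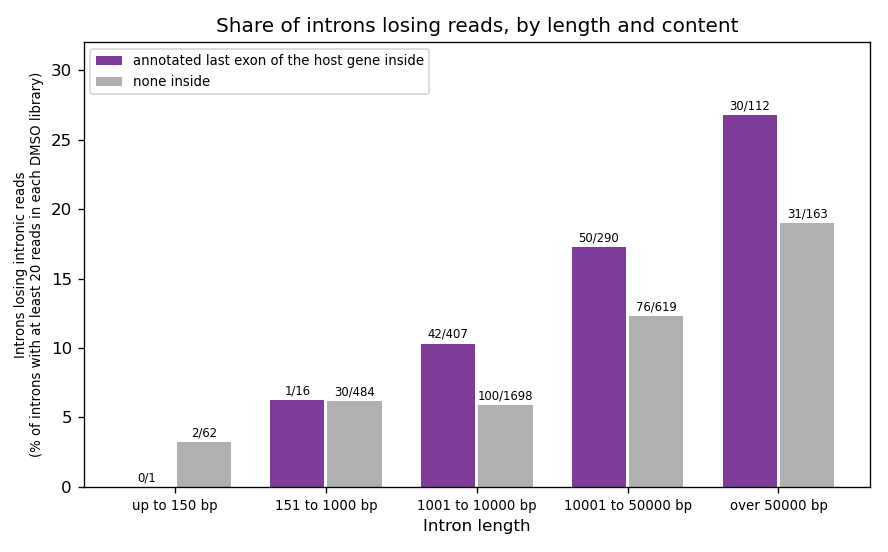
Share of judged introns that lost intronic reads (vertical, percent) by intron length, for introns with an annotated last exon of their gene inside (purple) and without (grey); the numbers on the bars are introns losing reads over introns judged. The purple bar is the taller one in the 3 classes over 1000 bp, at 10.3% against 5.89%, 17.2% against 12.3%, and 26.8% against 19.0%.

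In USP37, which encodes a deubiquitinase, intron 10 (19815 bp) had 18 and 16 intronic reads with H3B-8800, against 158 and 135 in DMSO. In EPC2, a chromatin gene, intron 2 (53248 bp) had 27 and 44 intronic reads with H3B-8800, against 87 and 101 in DMSO, and 50 and 55 spliced reads with H3B-8800, against 42 and 61 in DMSO. In EPC2 the groups overlapped in spliced reads.

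Most genes had few introns that could be judged. Of the 341 genes, 127 had at least 2 judged introns. In 21 of the 127, 2 introns lost reads, in 0 more than 2, and in 14 every judged intron of the gene lost reads. In 4 of the 21 the introns were neighbours (EHHADH, F3, MBD5 and SLC30A4). In F3, which encodes the clotting initiator tissue factor, intron 1 had 62 and 91 intronic reads with H3B-8800, against 327 and 303 in DMSO, and intron 2 had 33 and 25 after H3B-8800, against 74 and 76 in DMSO. Spliced reads of F3 intron 1 were lower as well, at 91 and 102 after H3B-8800, against 318 and 314 in DMSO.

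For 274 falling introns, the other listed introns of the gene, leaving out any second falling intron, had at least 20 DMSO reads together. In these other introns the middle ratio of H3B-8800 to DMSO was 1.46 (quartiles 0.946 and 2.27). It was above 1 for 199 of the 274 and at or below 0.5 for 18. The falling intron made up 24.2% of its gene's intronic reads in the middle case after H3B-8800 and 64.3% in DMSO. These shares come from the same libraries that chose the introns, and 8178 of 15900 transcripts had all of their annotated introns listed.

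Spliced reads of the falling introns, which were not part of the choice, were lower in sum. They summed to 717 ± 27.0 RPM after H3B-8800 and 892 ± 18.1 RPM in DMSO (SD, n = 2 each), or 0.804 of the DMSO sum, against 0.905 over all introns. For each 100 spliced reads there were 22.1 ± 0.150 intronic reads after H3B-8800 and 58.4 ± 2.34 in DMSO (SD, n = 2 each), while over all introns they were 8.95 ± 0.0430 after H3B-8800 and 4.42 ± 0.00552 in DMSO. The falling introns thus went against the series as a whole in this ratio, as their choice implies. In DMSO, 258 of the 362 (71.3%) had fewer spliced than intronic reads, against 47.5% of the other judged introns, and 9 had no spliced read in either DMSO library.

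Of the 362, 236 had a mean of at least 10 spliced reads and were tested with edgeR among 66136 introns. Spliced reads were lower with H3B-8800 at 72 of them and higher at 26 (Benjamini-Hochberg adjusted p under 0.05). Over all tested introns 21.7% were lower and 21.5% higher, and of the other judged introns tested 26.8% were lower and 20.3% higher. The median log2 change was -0.18, against -0.07 in the other judged introns and 0.01 over all. Scaled to library totals, 97 were lower and 19 higher, against 20733 lower and 8528 higher of all introns, and the median of all introns moved to -0.23. DESeq2 called 39 of the 236 lower and 19 higher. Leaving out either H3B-8800 library leaves 1 in that group, and the edgeR calls were then lost in both directions, over all introns as well. Without replicate 1 the median log2 change of the falling introns tested was -0.18, against -0.0055 over all introns. Without replicate 2 it was -0.20, against -9e-04. Both H3B-8800 values in RPM lay below both DMSO values at 131 of the 236, where 47.0% of all tested introns did, and above them at 40, where 24.9% did. The same libraries chose these introns, so the counts are a description. In RPM, spliced reads were at most 50% of the DMSO level at 67 of the 236 and at or above it at 68. These last counts were not made over all tested introns, so whether they differ from the rest is not known.

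Where spliced reads were lowest relative to DMSO, the spliced reads summed over the host gene were often lower too. These sums include the intron that was ranked by its fall, so they are not independent of the ranking. In intron 5 of PDLIM3, a muscle-type LIM protein gene (chr4:185504586-185506522), spliced reads were 0 and 2 after H3B-8800, against 35 and 39 in DMSO. Intronic reads there were 2 and 2 after H3B-8800, against 28 and 22 in DMSO, and the log2 change of the gene's spliced reads was -3.20 (SE 0.41). In intron 5 of CENPK, a kinetochore protein gene (chr5:65542848-65551564), intronic reads were 5 and 12 after H3B-8800, against 139 and 114 in DMSO. Its spliced reads were 11 and 5 after H3B-8800, against 66 and 75 in DMSO. Summed over its introns, CENPK changed by -2.43 (SE 0.10) on the log2 scale in spliced reads, so both kinds of read were lower in this gene.

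Intron 8 of SCLY, the selenocysteine lyase gene, had 50 and 78 intronic reads with H3B-8800, against 233 and 208 in DMSO, and 2 and 4 spliced reads with H3B-8800, against 17 and 28 in DMSO. An annotated retained-intron exon runs across it. Intron 1 of OMA1, a mitochondrial protease gene, had 5 and 3 spliced reads with H3B-8800, against 25 and 23 in DMSO. The shortest falling intron, intron 7 of ARRDC1 (73 bp), had 3 and 8 spliced reads with H3B-8800, against 21 and 44 in DMSO. In these 3 introns the groups did not overlap in spliced reads. They were ranked by the fall of those reads, so this mostly follows from the choice.

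In other introns spliced reads were higher while intronic reads were lower. Intron 2 of SAV1, a Hippo pathway scaffold gene (chr14:50645014-50665179), had 91 and 75 intronic reads with H3B-8800, against 232 and 226 in DMSO, and 117 and 107 spliced reads with H3B-8800, against 71 and 50 in DMSO. The log2 change of spliced reads was 1.22 (SE 0.20), and the groups did not overlap in spliced reads. Intron 2 of BCHE, the butyrylcholinesterase gene, had 22 and 25 spliced reads with H3B-8800, against 8 and 10 in DMSO. Intron 1 of AGGF1, an angiogenic factor gene, had 30 and 28 spliced reads with H3B-8800, against 12 and 11 in DMSO. In intron 4 of ZNF148, a zinc finger gene, these were 16 and 26 after H3B-8800, against 10 and 13 in DMSO. All of these are small counts, and the groups did not overlap. The introns were ranked by the rise of their spliced reads, so the lack of overlap mostly follows from the choice. Spliced reads summed per gene were higher too, with log2 changes of 1.15 in SAV1, 1.29 in BCHE, 0.85 in AGGF1 and 1.10 in ZNF148. Here too the sums include the ranked intron.

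**Figure D4:**
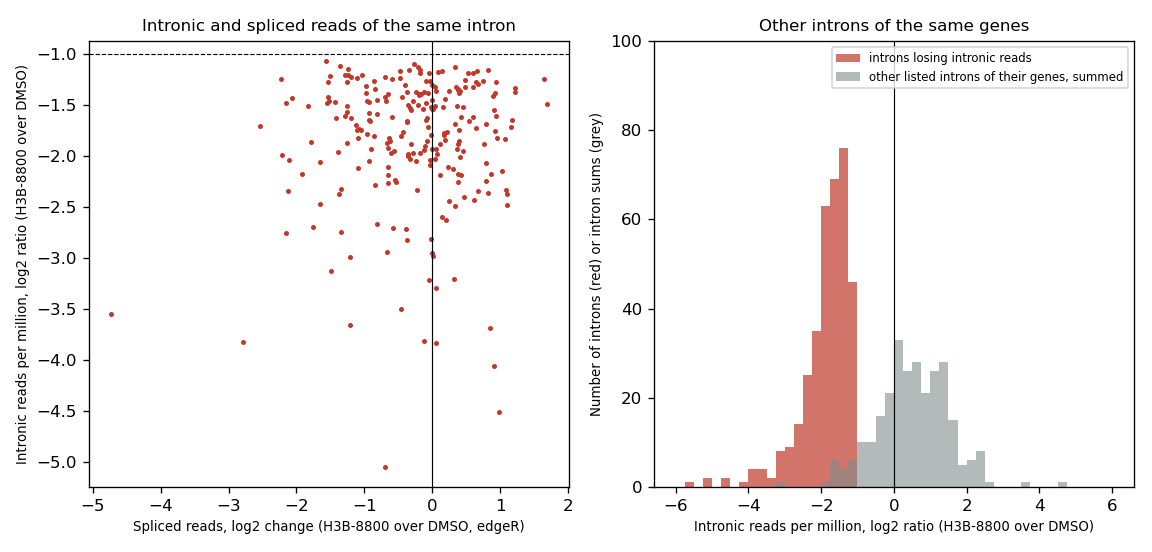
Left, log2 ratio of intronic RPM (vertical) against the log2 change of spliced reads (horizontal) for the tested introns losing reads, H3B-8800 over DMSO; the dashed line marks 50%. Right, log2 ratios of intronic reads for the introns losing reads (red) and for the summed other listed introns of their genes (grey, 274). The grey sums leave out any second intron losing reads. Spliced reads lie on both sides of 0, and most grey sums lie above 0.

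At the level of whole genes, 319 of the 341 host genes were tested for spliced reads among 9468 genes. With H3B-8800, 151 were lower and 78 higher (edgeR, Benjamini-Hochberg adjusted p under 0.05), where 32.7% of all genes were lower and 32.8% higher. Scaled to library totals, 177 were lower and 60 higher, against 3927 lower and 2230 higher of all 9468 genes. Of the tested genes of the other judged introns, some of them the same genes, 39.4% were lower and 30.3% higher with TMM scaling. The median log2 change was -0.30 in the host genes, -0.07 in the genes of the other judged introns and 0.01 in all genes. Host genes of falling introns with a last exon inside had a median of -0.24, and those of falling introns without one -0.37.

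Spliced reads of the gene's introns on either side of the falling intron were compared, leaving out any second falling intron. For 191 introns with at least 20 DMSO spliced reads both upstream and downstream, the median log2 ratio of spliced RPM was -0.51 upstream and -0.52 downstream. The difference, downstream minus upstream, had a median near 0 but went both ways, with quartiles of -0.28 and 0.28. In NOP56, for example, the log2 ratio was -1.34 downstream and -0.25 upstream. For the 61 of them with a last exon inside, it was -0.41 upstream and -0.43 downstream, and the downstream value was the higher one in 36 of 61.

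Of 8 gene lists, DNA replication had the largest share of falling introns. There, 4 of 10 judged introns fell, in POLA1, POLD3 and POLE, against 9.4% of all judged introns. Spliced reads of the 44 listed replication genes tested were lower in 36 and higher in 4, with a median log2 change of -0.74, against 0.01 over all genes, and with library totals lower in 39 and higher in 2. That this group of genes has fewer spliced reads was known from earlier results of these data.

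The replication introns rest on few reads. Intron 2 of POLD3, a DNA polymerase delta subunit gene, had 15 and 21 intronic reads with H3B-8800, against 82 and 80 in DMSO, and its spliced reads overlapped between the groups, at 32 and 50 after H3B-8800, against 61 and 44 in DMSO. Intron 8 of POLD3 had 6 and 3 intronic reads with H3B-8800, against 20 and 24 in DMSO. The last intron of POLA1, the catalytic subunit gene of polymerase alpha, had 15 and 12 intronic reads with H3B-8800, against 30 and 50 in DMSO. Intron 39 of POLE, the catalytic subunit gene of polymerase epsilon, had 8 and 12 intronic reads with H3B-8800, against 24 and 33 in DMSO.

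DNA repair genes had 2 falling of 18 judged introns, and genes that host small nucleolar RNAs 3 of 57, those of NOP56 and RPS3 among them. Among hnRNP genes 1 of 21 fell: intron 11 of HNRNPH1, which has an exon annotated across it, had 16 and 16 intronic reads with H3B-8800, against 94 and 78 in DMSO. In the lists of SF3b, SF3a and U2 factors (11 judged introns), SR proteins and their kinases (14), cleavage and polyadenylation factors (12) and the integrated stress response (3), 0 introns fell. Spliced reads per gene were counted for each list with TMM scaling and, in brackets, with library totals. Under the second scaling the median log2 change over all genes was -0.16. Of 41 DNA repair genes 26 were lower and 3 higher (28 lower and 1 higher with library totals), and of 22 stress response genes 3 were lower and 13 higher (5 lower and 13 higher). Of 21 cleavage and polyadenylation genes 6 were lower and 11 higher (8 lower and 10 higher), and of 25 hnRNP genes 10 were lower and 9 higher (13 lower and 6 higher). The balance turned with the scaling for the 22 SF3b, SF3a and U2 genes, with 3 lower and 12 higher (8 lower and 7 higher), for the 19 SR genes, with 7 lower and 10 higher (9 lower and 8 higher), and for the 44 small nucleolar RNA hosts, with 15 lower and 19 higher (24 lower and 11 higher).

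In 6 falling introns an annotated microRNA lay inside, among them intron 6 of GABRE, a GABA receptor subunit gene (chrX:151955860-151959839), with 62 and 83 intronic reads with H3B-8800, against 295 and 250 in DMSO. It carries the genes of MIR224 and MIR452. Their 5p mature sequences, from RefSeq on GRCh38.p14, are given with the seed (bases 2 to 8) in capitals, since they are annotated products of this intron.
hsa-miR-224-5p: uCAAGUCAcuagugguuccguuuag
hsa-miR-452-5p: aACUGUUUgcagaggaaacuga
The seeds differ. Mature microRNAs were not measured in these polyadenylated libraries.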

How the data were processed

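Per the labels' protocols, cytoplasmic RNA was isolated by fractionation and strand-specific libraries were made from polyA-selected RNA. The submitters' processing notes name HISAT2 2.0.4 and 2 builds, hg38 and mm10. The counting tool and its use of strand are not given in the sources used here. The authors deposited, per intron of 1 RefSeq transcript per gene, 2 read counts and an RPKM value. The deposited RPKM equals the first count (intronic reads) scaled by length and a library total, which gave the totals. Spliced reads, which span the intron, were the second deposited count minus the first, a reading inferred from the values. Of 142224 listed introns, 18 of at most 9 bp had no second count and were left out. Of non-zero intronic counts, 70.9% to 72.3% were even, as when mates of a pair are counted separately, so reads are not independent molecules.

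Intervals, less 1 base at each end, matched a GENCODE release 29 intron in 99.9% of cases. Symbols were matched by RefSeq accession for 98.4% of genes. Spliced reads were tested with edgeR 4.0.16 (R 4.3.3; quasi-likelihood test, TMM scaling, adjusted p under 0.05) where an intron averaged 10 or more spliced reads, and per gene from an average of 1 CPM. The tests were first tested on simulated data. DESeq2 1.42.0 was an alternative, as were other minimums, another limit, other scaling, a replicate block and each library left out. SEs were approximated from the F statistic. With 2 libraries per group, exact permutation of 1 value gives a two-sided p of 0.333 at the least.

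The introns named are the 8 with the most DMSO reads, the 8 with the lowest ratio, the 5 largest rises and the 5 largest falls of spliced reads (at least 20 on average in the higher group), and 3 on each side of the limit; genes with 3 or more such introns, also part of the rule, numbered 0. 1 intron that the rule names is not reported here. Others (USP37, EPC2, GABRE, HNRNPH1, RPS3, the DNA polymerase genes, and the 4 genes with neighbouring introns) were picked with their values in view. The introns and the 8 gene lists were chosen with earlier results of these data known. Genomic intron sequence was not used here.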

Additional observations from a re-analysis of the deposited data

How the results depend on the processing

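The number of introns losing reads depends on the rule: it was 623 with a minimum of 10 reads in each DMSO library, 194 with a minimum of 40, 74 with a limit of 25% in place of 50%, and 999 when intronic reads were scaled by TMM, which centres their changes. Leaving out 1 library gave 479 to 549 introns. With a minimum of 40 reads, 82.0% held a same-strand exon and 40.7% a last exon; with the limit of 25%, 39.2% held a last exon and 12.2% were first introns, against 20.1%. A last exon lay inside 8.01% by the GENCODE basic set and 11.05% by protein-coding transcripts (alternatives chosen after seeing the data). The median length was 12989 bp with a minimum of 40 reads, 11438.5 bp with the limit of 25% and 10593 bp with 1 intron per gene. These are subsets of the same introns.

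Of the tested introns, 39 had lower spliced reads by DESeq2, against 72 by edgeR; over all introns DESeq2 called 7967 higher and 8072 lower, against 14194 and 14366. Leaving out 1 library gave 0 to 23 higher and 0 to 59 lower. The 0 came without H3B-8800 replicate 1 or 2 (edgeR, smallest adjusted p over all introns 0.0846 and 0.0827), where 86 and 88 had an unadjusted p under 0.05; the cause was not tested. For host genes the counts stayed within 1.5 times under each alternative run. Same-numbered libraries did not deviate together (correlation 0.0484 over genes), so the numbers pair nothing. With the replicate block, 75 introns were lower and 27 higher, against 14995 lower and 14788 higher of all 66136 introns tested. There, 151 host genes were lower and 81 higher, against 3144 lower and 3140 higher of all 9468 genes tested. Depth limits what can be seen at introns with 20 to 40 DMSO reads.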

Other observations

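Zinc finger genes named ZNF with a number hosted 11 of the 362 falling introns (3.04%) and 1.92% of the other judged introns. A pseudogene was annotated inside 34 falling introns (9.39%) and inside 6.28% of the others, and the assignment of reads between such copies is uncertain. An exon on the opposite strand touched 18.5% of the falling introns and 14.8% of the others. Intron 5 of RPS3, a small ribosomal subunit gene that hosts SNORD15B in this intron, had 5 and 6 intronic reads with H3B-8800, against 26 and 20 with DMSO.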
